A study of Danio rerio with 4 samples.

Results

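The genes described here encode the receptor subunits through which zebrafish brain cells respond to GABA, glycine, glutamate, acetylcholine, serotonin and dopamine. They were chosen by gene symbol from the Ribo-seq table, taking every symbol that begins with gabr, gria, grin1 to grin3, grik, grid, grm, glra, glrb, chrn, chrm, htr or drd and, where the family is numbered, a digit. The rule took 116 of 25522 listed genes, and 73 of the 116 had 40 or more read counts summed over both libraries and were compared. The other 43 lay under that minimum and held 499 counts for the sibling and 272 for the mutant library in all. One symbol that passed, grid2ipb, encodes a protein that binds a glutamate receptor and is not itself a subunit, so 72 of the 73 are subunit genes.

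The study set zebrafish carrying a mutation in nop2 beside their siblings, in brain tissue, with 1 Ribo-seq library for each genotype. Nop2 is a nucleolar RNA methyltransferase that acts on ribosomal RNA. The labels do not say what the mutation is, what genotypes the siblings had or how many animals were pooled. The titles give the age as 48 days and the design text as 48 hours after fertilisation, and the files do not settle which is right. A second assay, bisulfite sequencing of messenger RNA, which reads 5-methylcytosine, was made for each genotype too.

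Ribo-seq sequences the fragments of messenger RNA that ribosomes protect from nuclease, so a gene's count of such footprints follows both the amount of its messenger RNA and how densely it is translated. The sibling library held 20696345 counts and the mutant library 18884879, so that 1 footprint was worth 0.0483 CPM (the count divided by the library total and scaled to a common total) in the first and 0.053 CPM in the second. With 1 library per genotype there was no replicate check: every comparison below is between these libraries, and each interval, at the 95% level, covers counting error only. Ratios are log2 of mutant CPM over sibling CPM, with 0.5 counts added to each count, so that -1 is a 2-fold lower level in the mutant library. The targeted gene, nop2, had 657 footprints for the sibling and 41 for the mutant library, a log2 ratio of -3.85 (interval -4.36 to -3.41). Of 10 pan-neuronal marker genes, 8 had lower levels in the mutant library, beside 55.2% of all genes with 40 or more counts. At least 2-fold lower levels were seen for 0 of the 10, and 3 (elavl3, snap25a and gap43) had intervals that include 0. The 10 genes summed to 2092 CPM for the sibling and 1705 CPM for the mutant library.

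Fast signalling between neurons uses channels built from several subunits around a pore. GABA-A and glycine receptors pass chloride and mostly inhibit, while AMPA, kainate and NMDA receptors pass cations on binding glutamate and excite. Metabotropic glutamate, muscarinic, dopamine and most serotonin receptors act through G proteins instead. Nicotinic acetylcholine receptors are cation channels that come in a muscle form, at the neuromuscular junction, and in many neuronal forms. Subunit make-up sets a channel's speed, conductance and drug response, and it changes as the vertebrate brain and muscle mature.

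Receptor subunit genes carried fewer footprints in the mutant library across nearly every transmitter system. Of the 73 genes compared, 65 had a ratio below 0 and 8 above it, where 55.2% of all 18135 genes with 40 or more counts were below 0 and 44.8% above. At least 2-fold lower levels were seen for 14 of them, against 5.77% of all genes, and at least 2-fold higher levels for 0, against 4.67%. The counting interval lay wholly below 0 for 43 genes (31.9% of all genes) and wholly above 0 for 1 (25.1%), the muscle nicotinic gene chrng. The median ratio was -0.66, beside -0.06 over all genes, and the ratios ran from -2.19 to 0.94. Summed over the 73 genes, the receptors took 698 CPM for the sibling and 440 CPM for the mutant library, 63.0% of the sibling level. Because footprints were measured in bulk tissue, fewer cells of a type, less RNA in each cell and less translation of each RNA cannot be told apart.

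**Figure D1:**
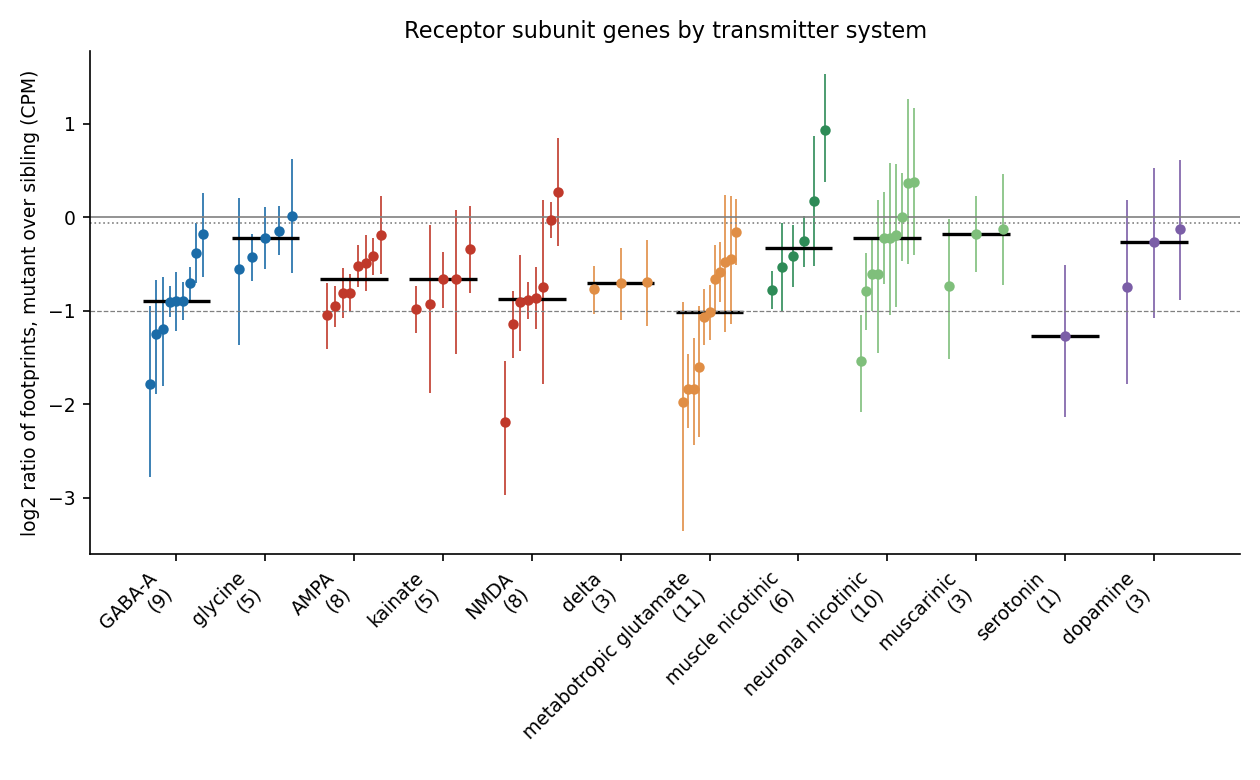
Log2 ratio of mutant over sibling CPM for each of the 72 receptor subunit genes, by transmitter system; each point is 1 gene with its 95% counting interval, black bars mark the median of the system, the dotted line marks the median of all genes and the dashed line a 2-fold lower level. Of the 72 points, 65 lie below 0, and the metabotropic glutamate receptors have a median of -1.01 while the glycine receptors have a median of -0.22.

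The minimum on counts decides which genes can be described. The genes just inside it were drd1b and grin2cb, each with 28 footprints for the sibling and 15 for the mutant library, and grm5a with 36 and 8. Just outside it lay glra4b, with 37 and 1 footprints, chrna2a, with 10 and 27, chrna10a, with 32 and 3, and gabrr2a, with 28 and 7. These 4 genes went in both directions, with larger ratios than most genes inside. Of the 73 kept genes, 6 had under 20 footprints in the mutant library and 0 had under 20 in the sibling library, so some passed through the sibling library alone.

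GABA-A receptors, the main inhibitory channels of the forebrain and midbrain, were lower for every one of the 9 genes kept, with a median of -0.89. Their summed level was 148 CPM for the sibling and 84.3 CPM for the mutant library, a ratio of -0.81 (interval -0.90 to -0.72). The beta subunit gene gabrb4 had 606 and 298 footprints (29.3 and 15.8 CPM), a ratio of -0.89 (interval -1.10 to -0.69). The gene gabrp, for the pi subunit, which in mammals is found mainly outside the brain, had 259 and 127 footprints, also a ratio of -0.89. Both genes thus lay near the median of the family. The lowest ratio with 100 or more counts was that of the alpha2 gene gabra2a, with 87 and 33 footprints (-1.25, interval -1.89 to -0.67). The alpha5 gene gabra5, whose receptors lie largely outside synapses in mammalian hippocampus, had 203 and 142 footprints, a ratio of -0.38 (interval -0.70 to -0.07).

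The mildest shift among the GABA-A genes was in the beta2 gene gabrb2a, whose 96 and 77 footprints gave a ratio of -0.18 with an interval from -0.64 to 0.26 that includes 0. The widest shift was in gabrz, with 54 footprints for the sibling and 14 for the mutant library, a ratio of -1.78 on a small count. The alpha and beta shares hardly differed between libraries. Among the 9 kept GABA-A genes, alpha subunits took 39.7% of footprints for the sibling and 39.3% for the mutant library, and beta subunits 25.9% and 25.8%.

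The GABA-A rho subunits form a slow GABA channel prominent in retinal bipolar cells of vertebrates, and the rho genes that the rule took all lay under the minimum. These 4 genes summed to 56 footprints for the sibling and 11 for the mutant library, a ratio of -2.16 (interval -3.30 to -1.27). Outside the rule, under capital-letter symbols, GABRR1 passed the minimum with 26 and 15 footprints (-0.64, interval -1.68 to 0.31). The gene GABRR3, also outside the rule, had 27 and 1. Retinal bipolar markers were lower for 4 of 5 genes, with a summed level of 218 CPM for the sibling and 56.9 CPM for the mutant library. Photoreceptor markers were lower for 12 of 14 genes and summed to 377 and 82.1 CPM. Retinal ganglion markers were lower for 6 of 7 genes and summed to 180 and 87.5 CPM. For these 3 marker lists the share of all genes that were lower was 55.2%. The part of retinal tissue in the receptor levels was not tested.

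Glycine receptors, the inhibitory channels of spinal cord and hindbrain, stood nearer to the sibling level than GABA-A receptors. The 5 kept genes had a median of -0.22 and summed to 869 and 657 footprints, a ratio of -0.27 (interval -0.42 to -0.12). The alpha1 gene glra1, the main adult ligand-binding subunit in mammals, had 270 and 223 footprints, a ratio of -0.14 whose interval from -0.41 to 0.12 includes 0. The beta gene glrbb, whose subunit anchors the receptor to gephyrin, had 336 and 228 footprints, a ratio of -0.43 (interval -0.68 to -0.18), and was the only one of the 5 with an interval below 0. The alpha4 gene glra4a had 174 and 136 footprints and a ratio of -0.22. The alpha3 gene glra3 was level, with 50 and 46 footprints and a ratio of 0.01.

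The alpha2 gene glra2 had 39 and 24 footprints, a ratio of -0.56, but its deposited TPM values, which allow for transcript length, were 1.31 and 1.61, in the opposite direction. Only glrbb among the 5 had whole-number counts in both libraries, and a count that is not whole can arise where a counter divides reads between similar sequences. With genes of whole-number counts alone, the glycine ratio is that of glrbb. Outside the minimum, glra4b had 37 footprints for the sibling and 1 for the mutant library, and counting every listed glycine receptor gene moved the summed ratio to -0.33.

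The GABA-A sum was further below its sibling level than the glycine sum. The log2 difference between the ratios was -0.54 (interval -0.71 to -0.37), and GABA-A footprints were 3.52 times glycine footprints in the sibling library and 2.42 times in the mutant library. The difference ran from -0.59 to -0.40 over the alternative settings.

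AMPA receptors, which carry most fast excitation, were lower for all 8 genes, with a median of -0.66. Their footprints summed to 3002 for the sibling and 1712 for the mutant library, a ratio of -0.68 (interval -0.76 to -0.59). The GluA1 gene gria1a had 604 and 315 footprints, a ratio of -0.81 (interval -1.01 to -0.61), and its duplicate gria1b had 225 and 99, a ratio of -1.05. The GluA2 subunit keeps calcium out of the channel when its messenger RNA is edited, and its genes gria2a and gria2b had ratios of -0.52 and -0.95. At the other end, the GluA4 gene gria4a had 111 and 89 footprints, a ratio of -0.18 (interval -0.61 to 0.23). The GluA3 genes took 24.7% of AMPA footprints in the sibling library (interval 23.1% to 26.2%) and 29.0% in the mutant library (26.9% to 31.2%), and the GluA1 genes 27.6% and 24.2%. All 8 AMPA genes had counts that were not whole, so the division between them may rest on how the authors assigned shared reads and is uncertain.

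Kainate receptors, which act on both sides of the synapse, were lower for all 5 genes, with a median of -0.66 and a summed ratio of -0.78 (interval -0.95 to -0.61). The most abundant was grik3, with 414 and 191 footprints and a ratio of -0.98, while the GluK5 gene grik5 had 96 and 69 footprints and a ratio of -0.34 whose interval from -0.81 to 0.12 includes 0. Outside the rule, a gene with the capital-letter symbol GRIK5 had 37 and 16 footprints (-1.05, interval -2.02 to -0.20). Another of that symbol had 5 and 7, under the minimum. The delta1 genes grid1a and grid1b, for subunits related to the glutamate channels, had 165 and 92, and 114 and 64 footprints, ratios of -0.71 and -0.70. In contrast grid2ipb, for a protein that binds a receptor and not for a subunit, had 65 and 71 footprints, a ratio of 0.26 (interval -0.25 to 0.77).

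NMDA receptors need a GluN1 subunit together with GluN2 subunits, and they act as coincidence detectors in plasticity. Of 8 genes, 7 were lower, and the sum went from 1869 footprints in the sibling library to 1098 in the mutant library, a ratio of -0.64 (interval -0.74 to -0.53). The genes within the family differed widely. Of the duplicated GluN1 genes, grin1b had 638 and 314 footprints, a ratio of -0.89 (interval -1.09 to -0.69), while grin1a had 485 and 433, a ratio of -0.03 (interval -0.22 to 0.16) whose sign flips under TMM or DESeq2 scaling, which move every ratio up by 0.05. The grin1a copy thus took 43.2% of GluN1 footprints in the sibling library (interval 40.3% to 46.1%) and 58.0% in the mutant library (54.3% to 61.5%). Both GluN1 genes had counts that were not whole, so the division between them is uncertain. Without genes of that kind the NMDA ratio was -0.96.

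The GluN2A genes had the largest deficit in the family. These subunits replace GluN2B at many mammalian synapses as the forebrain matures. The gene grin2ab had 107 footprints for the sibling and 21 for the mutant library, a ratio of -2.19 (interval -2.97 to -1.53) that was the lowest among the 73 genes, and grin2aa had 228 and 94, a ratio of -1.14. Together they took 17.9% of the footprints of the 8 NMDA genes compared here in the sibling library (interval 16.2% to 19.7%). In the mutant library they took 10.5% (8.72% to 12.4%). The GluN2B gene grin2bb had 231 and 116 footprints, a ratio of -0.86, and its share was 12.4% and 10.6%. The GluN2D gene grin2da had 101 and 49 footprints. Of the 8 NMDA genes compared here, only the GluN2C gene grin2ca had a ratio above 0, with 51 and 56 footprints (0.27, interval -0.31 to 0.84).

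**Figure D2:**
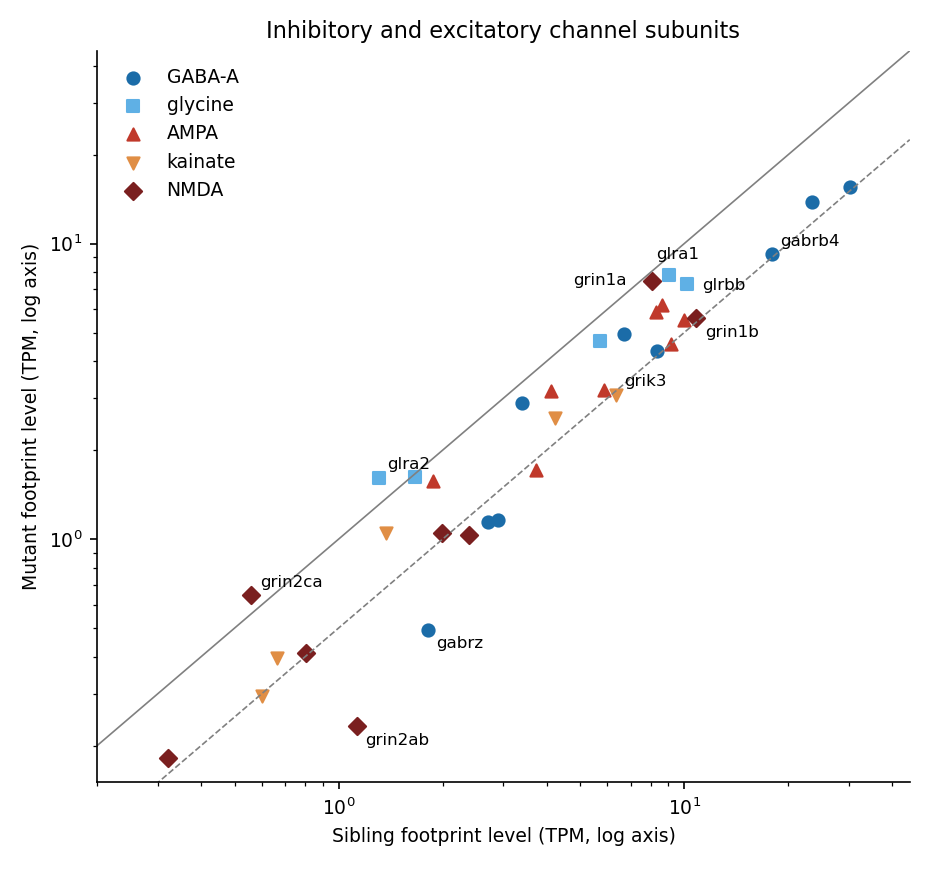
Footprint level of each inhibitory and excitatory channel subunit in the sibling library (horizontal axis) against the mutant library (vertical axis), both in TPM on log axes; the solid line marks equal levels and the dashed line a 2-fold lower level in the mutant library. The GABA-A gene gabrb4 and the NMDA gene grin1b lie near the dashed line, grin1a and glra1 near the solid line, and grin2ab and gabrz below the dashed line.

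Set against each other as classes, inhibitory and excitatory channel subunits were lower to a like extent in these libraries. The 14 inhibitory genes (GABA-A and glycine) had a median of -0.63 with 13 below 0, and the 21 excitatory genes (AMPA, kainate and NMDA) a median of -0.81 with 20 below 0. The summed ratios were -0.67 (interval -0.75 to -0.60) and -0.68 (interval -0.74 to -0.62). The difference between them was 0.0055 on the log2 scale, with an interval from -0.0926 to 0.1034, and inhibitory footprints were 0.688 times excitatory footprints in the sibling library and 0.691 times in the mutant library. Within the inhibitory class the parts differed: the glycine sum stood 0.41 above the excitatory sum (interval 0.25 to 0.57) and the GABA-A sum 0.13 below it, a difference of -0.13 (interval -0.24 to -0.02).

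Partner genes of both kinds of synapse were also lower. Of 17 kept inhibitory partners, which include the GABA transporters, glutamate decarboxylases, gephyrins and neuroligin 2 genes, 16 were lower, with a median of -0.61. Beside them, 55.2% of all genes were lower. The GABA transporter gene slc6a1b (-1.15) was the 1 partner of the 17 at least 2-fold lower. That is 5.88%, near the 5.77% of all genes. The gephyrin gene gphna was at 0.15 and the glutamate decarboxylase gene gad1b at -0.02. All 23 kept excitatory partners were lower, with a median of -0.53, and 3 (13.0%, beside 5.77% of all genes) were at least 2-fold lower. The largest difference was in slc17a7a, for a vesicular glutamate transporter, with 335 and 44 footprints (-2.78), while slc17a6b, for another, was at -0.07.

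Metabotropic glutamate receptors showed the lowest median of the systems with several genes. All 11 were lower, 6 of them at least 2-fold, with a median of -1.01, though grm5b among the 6 falls just short of 2-fold under TMM or DESeq2 scaling (-0.96). Their sum was 86.1 CPM for the sibling and 43.9 CPM for the mutant library, a ratio of -0.97 (interval -1.09 to -0.85). Group I receptors, which couple to phospholipase C, include grm5b, with 319 and 144 footprints (-1.01), and grm1a, with 134 and 34 (-1.83, interval -2.43 to -1.29). Of group II, which lower cyclic AMP, grm3 had 272 and 69 footprints, a ratio of -1.84 (interval -2.25 to -1.46), and grm2b had 305 and 133 (-1.06), but grm2a had 150 and 123 (-0.15, interval -0.51 to 0.20).

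Group III receptors sit mostly at presynaptic terminals. Of these, grm4 had 219 and 133 footprints (-0.59) and grm8a 175 and 101 (-0.66). The mGlu6 receptor carries the ON response of retinal bipolar cells, and its gene grm6b had 81 and 24 footprints, a ratio of -1.60. Its duplicate grm6a had 43 and 28, a ratio of -0.48 whose interval from -1.23 to 0.23 includes 0. The part of bipolar cells in these levels was not tested. A last gene, grm1b, had 19 footprints for the sibling and 0 for the mutant library. The counting interval of its log2 ratio had no lower end and an upper end of -2.09.

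Muscle nicotinic subunits were present in these brain libraries, 1 of them, chrna1, at a high level. The others ranged in the sibling library from 7.72 TPM for chrnd to 1.14 TPM for chrng and chrnb1l. The alpha gene chrna1 stood at 23.5 TPM in the sibling library, above gabrb4 at 18.0 TPM and the NMDA gene grin1b at 10.9 TPM. In the mutant library chrna1 stood at 12.5 TPM, gabrb4 at 9.21 TPM and grin1b at 5.59 TPM, so these 3 genes kept that order, for which no spread over samples can be given. Skeletal muscle markers summed to 59747 CPM for the sibling and 21278 CPM for the mutant library, with 19 of 20 genes lower, 13 at least 2-fold, and a median of -1.20. The part of muscle tissue in the muscle nicotinic levels was not tested.

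The muscle subunits differed in direction. The ligand-binding alpha gene chrna1 had 566 and 302 footprints, a ratio of -0.77 (interval -0.98 to -0.57), and the beta gene chrnb1 had 100 and 63 (-0.53). The delta gene chrnd had 266 and 203 footprints, a ratio of -0.26 whose interval from -0.53 to 0.01 includes 0, and the related beta gene chrnb1l had 37 and 38 (0.17). The gamma subunit belongs to the fetal muscle receptor of mammals and the epsilon subunit replaces it in the adult. The epsilon gene chrne had 191 and 131 footprints, a ratio of -0.41 (interval -0.74 to -0.08). The gamma gene chrng had 41 and 72 footprints (1.98 and 3.81 CPM), a ratio of 0.94 (interval 0.37 to 1.53).

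Gamma and epsilon thus went in opposite directions. The log2 difference between their ratios was 1.36 (interval 0.69 to 2.04). Gamma took 17.7% of the footprints of the pair in the sibling library (interval 13.0% to 23.2%) and 35.5% in the mutant library (28.9% to 42.5%). All 6 muscle subunit genes had whole-number counts in both libraries. Of the partner genes of the neuromuscular junction, 5 of 6 kept genes were lower, beside 55.2% of all genes, and 3 had an interval below 0. Rapsyn clusters the receptor there, and its gene rapsn had 170 and 56 footprints (-1.46), while agrn, for the clustering signal agrin, was at 0.17. The 6 genes summed to 437 CPM for the sibling and 457 CPM for the mutant library, of which agrn took 315 and 355 CPM.

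**Figure D3:**
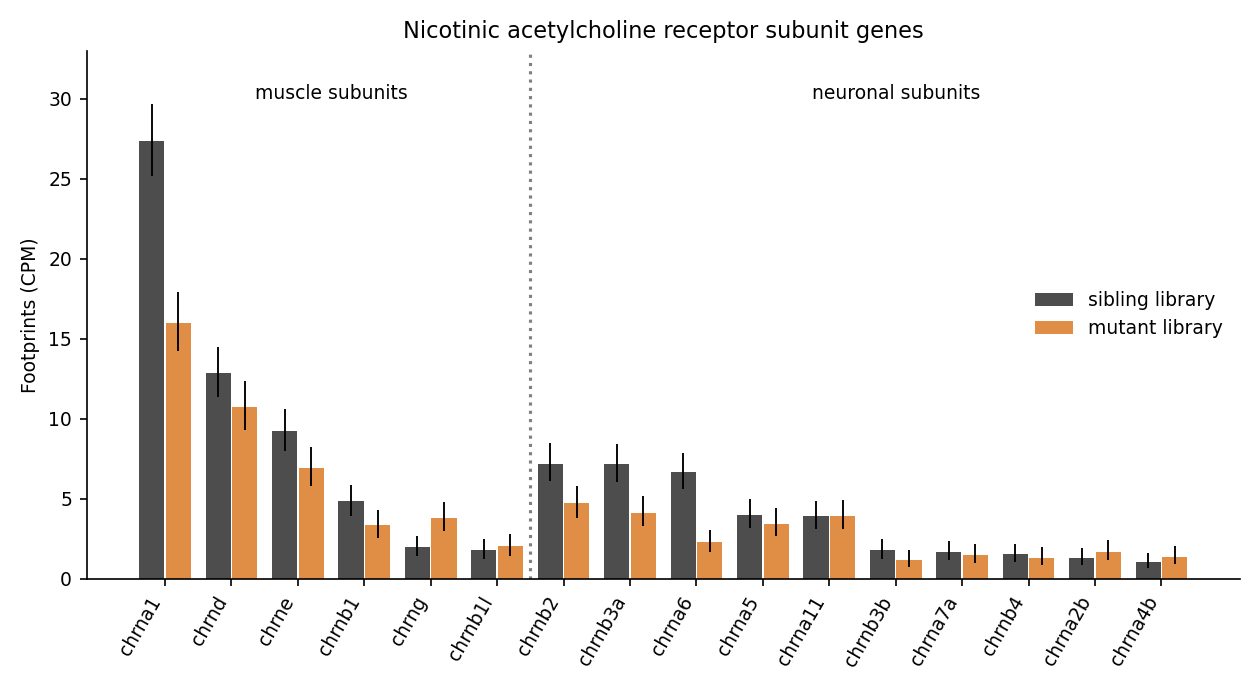
Footprint level in CPM of each nicotinic subunit gene in the sibling and mutant libraries, for the 6 muscle and 10 neuronal subunits, with lines for the 95% counting interval. The muscle gene chrna1 goes from 27.3 to 16.0 CPM and chrng from 1.98 to 3.81 CPM, and among the neuronal genes chrna6 goes from 6.67 to 2.28 CPM.

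Neuronal nicotinic subunits were lower for 7 of 10 genes, beside 55.2% of all genes, with a median of -0.22. The interval lay below 0 for 3 of the 10, chrna6, chrnb3a and chrnb2, near the share of 31.9% over all genes. They summed to 752 footprints for the sibling and 482 for the mutant library, a ratio of -0.51 (interval -0.68 to -0.34). The largest difference was in chrna6, a subunit of midbrain dopamine neurons and retinal ganglion cells in mammals, with 138 and 43 footprints (-1.54, interval -2.08 to -1.05). Its frequent partner beta3 is encoded by chrnb3a, with 148 and 78 footprints (-0.79). The gene chrnb2, for the most widespread beta subunit of mammalian brain, had 149 and 89 (-0.61). In contrast chrna11 was level, with 81 and 74 footprints (0.00), and the genes chrna2b and chrna4b had 27 and 32, and 22 and 26 footprints, with intervals that include 0.

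As classes, muscle and neuronal nicotinic subunits did not differ beyond counting error. The muscle sum had a ratio of -0.44 (interval -0.57 to -0.31), and the difference from the neuronal sum was 0.07 (interval -0.14 to 0.29). Without the most abundant gene of each class, chrna1 and chrnb2, the difference was 0.29 (interval 0.04 to 0.55), so the result depends on those genes. On the TPM scale the muscle sum had a ratio of -0.59. Of the genes that make and move acetylcholine, chata, for choline acetyltransferase, had 70 and 94 footprints (0.55), while slc18a3a and slc5a7a were at -0.09 and -0.04.

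Receptors for acetylcholine and monoamines that act through G proteins were thinly covered. The muscarinic genes chrm2a, chrm3a and chrm4a were all below 0, with 119 and 96, 46 and 25, and 55 and 46 footprints, and their summed ratio of -0.26 had an interval from -0.56 to 0.03. Of 12 dopamine receptor genes 3 were kept, with 97 and 70 footprints in all (-0.34, interval -0.80 to 0.12). Of 14 serotonin receptor genes 1 was kept, htr1aa, with 51 and 19 footprints (-1.27, interval -2.14 to -0.51), while all 14 summed to 187 and 128. Each of the 3 kept dopamine receptor genes had an interval that includes 0. Under the minimum, intervals lay off 0 in both directions, as for htr4, with 24 and 9 footprints (-1.23, interval -2.57 to -0.13), and htr1ab, with 10 and 22 (1.23, interval 0.13 to 2.51).

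Of 10 kept genes that make, break down or carry monoamines, 7 were higher and 3 lower, with a median of 0.48, and 5 had an interval above 0. Among all genes, 44.8% were higher and 25.1% had an interval above 0. Among them th, for tyrosine hydroxylase, had a ratio of 0.93 and tph2, for neuronal tryptophan hydroxylase, a ratio of 0.98, while the transporter genes slc6a4a and slc6a3, for serotonin and dopamine, were at -0.34 and -0.25. The 18 kept G protein coupled receptor genes were all below 0, and 11 of them are the metabotropic glutamate receptors.

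Many zebrafish receptor genes exist as a and b copies from the genome duplication of bony fish, and 13 such pairs had both copies above the minimum. Both copies were lower in 12 of the 13, with grin1 among them under the scaling used here but not under TMM or DESeq2 scaling. The b copy was further below its sibling level than the a copy, with an interval of the difference below 0, in 6 pairs, while the interval lay above 0 in 0 pairs and included 0 in 7. Pairs of other genes were not compared, so no share over all pairs stands beside the 6 of 13. No trait of b copies can be read from these counts. The differences were -1.14 for grm6, -1.07 for grin2a, -0.91 for grm2, -0.86 for grin1, -0.62 for gria4 and -0.43 for gria2. Of the 26 genes in these pairs, 12 had whole-number counts. Among the 6 pairs with the b copy further below, only grin2a had whole-number counts in both copies. In the others the division of reads between similar sequences is uncertain.

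**Figure D4:**
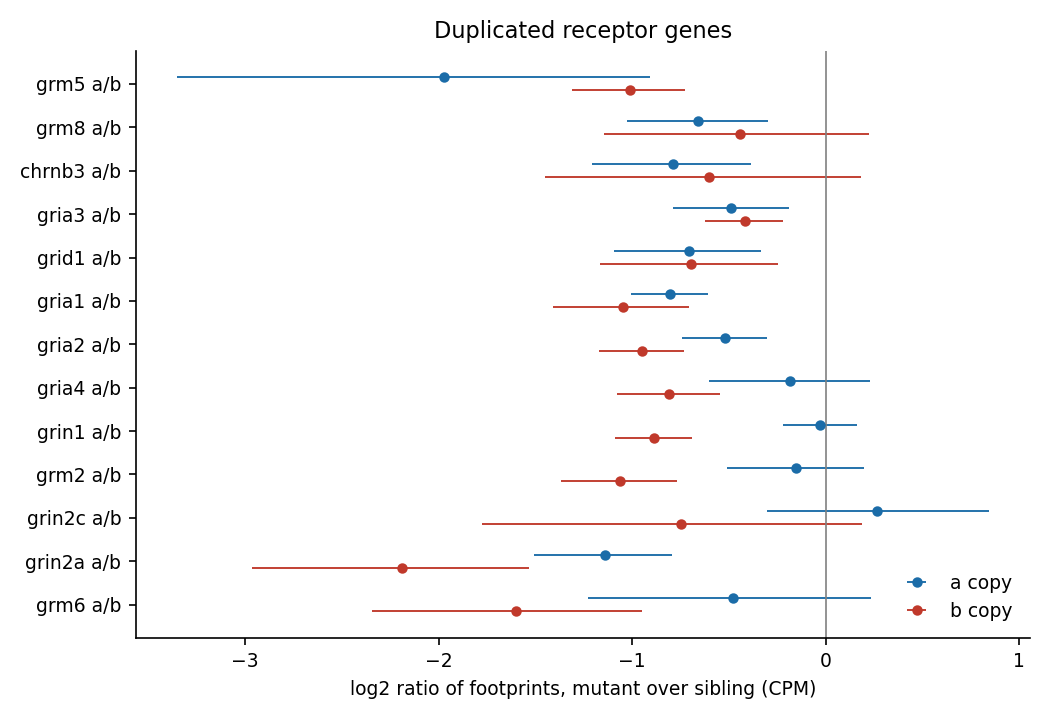
Log2 ratio of mutant over sibling CPM for the a and b copies of the 13 duplicated receptor genes, with bars for the 95% counting interval. In grin1 the a copy lies at -0.03 and the b copy at -0.89.

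**Figure D5:**
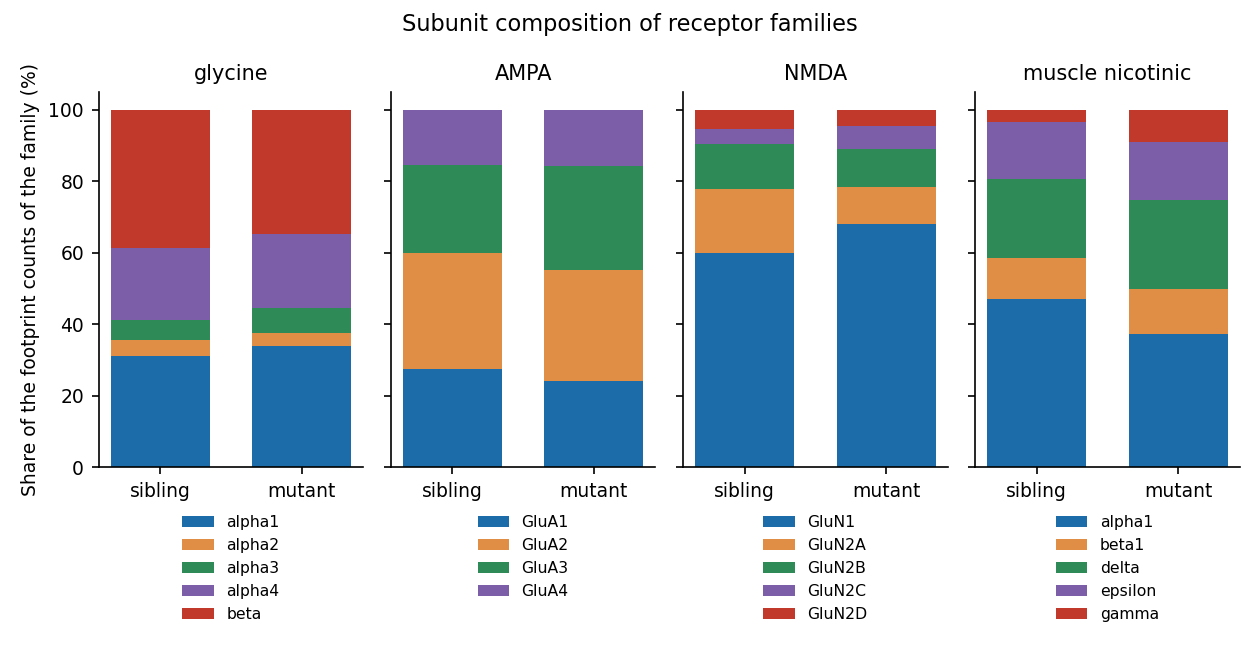
Share of a receptor family's footprints taken by each subunit, in percent, in the sibling and the mutant library. Each family holds only its kept genes, without those that carry capital-letter symbols. The GluN2A share of NMDA footprints is 17.9% and 10.5%, and the gamma share of muscle nicotinic footprints is 3.41% and 8.90%.

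Some receptor genes sit side by side in the genome. In the RefSeq annotation of assembly GRCz12tu, where 124 of 145 receptor symbols had an entry, gria2a neighboured glrba and gria2b neighboured glrbb. The first pair had ratios of -0.52 and -0.60, with glrba under the minimum, and gria2b and glrbb had ratios of -0.95 and -0.43. The deposited bisulfite results list sites and regions with a score for the difference in methylation level between conditions. No receptor gene was among the 92 genes named for sites or the 51 named for regions. With so few genes named, beside 25522 genes listed for Ribo-seq, the absence of receptor genes carries little weight. Whether receptor messenger RNA is methylated was not tested, and the bisulfite libraries added no value for receptor genes.

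A further 46 receptor genes carry symbols with capital letters, which the rule did not take. Of the 20 with 40 or more counts, 15 were lower, with a median of -0.53 and a summed ratio of -0.46. NMDA genes of this kind went both ways: Grin2d had 214 and 224 footprints (0.20, interval -0.08 to 0.48) and GRIN2B 109 and 51 (-0.96). The family sums and subunit shares given above leave out all genes with capital symbols, among them the GABA-A gene GABRA2, with 358 and 160 footprints (-1.03). The widest difference was in GRIK1, a kainate subunit gene, with 125 and 7 footprints (-3.93), and with such genes included the kainate ratio was -0.96. A pair of genes that carry the symbol HTR3A, for the serotonin-gated channel, were higher, one with 80 and 100 footprints (0.45, interval 0.02 to 0.90) and the other with 68 and 93 (0.58, interval 0.12 to 1.06). The other kept gene of that channel, HTR3B, was lower, with 26 and 16 footprints (-0.55, interval -1.56 to 0.38). With all 3 included the serotonin receptor ratio was 0.15 instead of -1.27.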

How the data were processed

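Ribo-seq and RNA bisulfite libraries of brain tissue, 1 per genotype and assay, were grouped by the genotype in the labels. The deposited Ribo-seq table gives expected counts, TPM and the authors' own log2 fold changes and p-values per gene, and the last 2 were not used. The authors' bisulfite tables give a score for the difference in methylation level between conditions, and only their gene names were used. The submitters' processing notes name fastp, Bowtie2, STAR, Trimmomatic 0.38, HISAT2, SAMtools, methylKit and the build GRCz11. The counter and gene annotation are not given in the sources used here.

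Expected counts were rounded to whole numbers and divided by the library totals of 20696345 and 18884879 to give CPM. Of all listed genes, 25.7% had a count that was not whole. Genes with 40 or more summed counts were kept, and 0.5 was the pseudocount. No test was made, with 1 library per genotype. Intervals of 95% are exact conditional (Clopper-Pearson) intervals. They were run on simulated counts with counting error alone, where exact intervals hold by construction. That run therefore says nothing on other error in these libraries. The intervals cover counting error only, as there was 1 library per genotype. No molecular identifiers are named, so copies of the same fragment may be counted apart and the intervals may be too narrow.

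The text names, in each family, the gene with most counts, those with the highest and lowest ratio at 100 or more counts, all muscle nicotinic genes and all genes at least 2-fold changed at that depth. Some genes that this rule takes are not reported here by name. Other named genes were chosen after their values were seen. The members and lists were chosen with earlier results of these data known. Scalings by edgeR 4.0.16 and DESeq2 1.42.0 in R 4.3.3, TPM, other minimums, another pseudocount and whole-number counts alone were tried as alternatives. Intervals and figures were made with Python 3.11.15, SciPy 1.17.1 and Matplotlib 3.10.9.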

Additional observations from a re-analysis of the deposited data

How the results depend on the processing

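With 1 library per genotype no replicate could be left out. Scaling by TMM or by DESeq2 size factors moved all ratios up by 0.05 and changed the direction of grin1a alone among the 73 genes. Over the alternatives, 176 values for receptor groups counted as unchanged, 14 moved and 1 reversed. Unchanged meant a ratio inside its main interval or a number of genes near its main value. The number below 0, 65 as reported, thus counted as unchanged at 85 with 10 or more counts. TMM and DESeq2 scaling cannot change a difference between classes. All 355 recomputed ratios of 37 named genes lay within their reported counting intervals. Only scaling, TPM or the pseudocount can change a gene's ratio, so agreement under other settings was fixed in advance. The chrna11 ratio, 0.00 as reported, was -0.06 on TPM. Near the 2-fold limit, gria1b (-0.99) and grm5b (-0.96) fell short of it under TMM and DESeq2 scaling, leaving 12 genes at least 2-fold lower, and grik3 (-1.04) passed it on TPM, where 17 did. On TPM the muscle nicotinic sum was -0.59. With 10 or more counts, 27 genes were at least 2-fold lower and 3 higher, and the serotonin sum was -0.38. With no minimum these were 35, 7 and -0.41. With whole-number counts alone, 39 genes were below 0, 9 at least 2-fold lower, the glycine sum was -0.43, the NMDA sum -0.96 and the inhibitory against excitatory difference 0.12. That setting leaves fewer genes. With capital symbols included the kainate sum was -0.96 and the serotonin sum reversed to 0.15. Without the most abundant gene of each nicotinic class the muscle against neuronal difference was 0.29. Depth limits the monoamine and muscarinic receptors most.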
